A study of Mus musculus with 6 samples.

Results

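The 10 genes described here encode 9 apolipoproteins, the proteins that coat and steer blood lipid particles, and Mttp, the transfer protein that loads lipid onto apolipoprotein B. They were picked by gene symbol (Apoa1, Apoa2, Apoa4, Apoa5, Apob, Apoc1, Apoc3, Apoe, Apom and Mttp), and all 10 were found among the 30236 genes listed. Their transcripts were measured by RNA sequencing of total RNA from 6 liver tumors of male C57BL/6 mice, 3 of them WT and 3 Top1mt -/- (called Top1mt-KO or KO here). The study took tumors of equal size from both genotypes for sequencing, whereas it found smaller tumors in KO mice. Top1mt encodes the topoisomerase of mitochondria, and the KO line was bred from heterozygotes to give WT and KO littermates, with no tissue-specific driver named in the sources used here. Both genotypes had received diethylnitrosamine, a liver carcinogen, into the peritoneum on day 14, then carbon tetrachloride, a liver toxin, from week 8 over 14 weeks, with tumor collection at week 22. There was no untreated liver among the samples, so the values describe tumors that all carry the same chemical injury. The sources used here do not say that each tumor came from a different mouse, so p-values measure only the spread between these tumors.

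The liver exports triglyceride and cholesterol in very low density lipoproteins, each built on a single molecule of apolipoprotein B that Mttp lipidates as it enters the endoplasmic reticulum. High density lipoproteins form around apolipoprotein A-I, which hepatocytes secrete with little lipid and which then collects cholesterol from other cells. The smaller apolipoproteins move between both kinds of particle and set how fast lipoprotein lipase empties them and how receptors clear them.

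The annotated genes lie in GRCm38. Apoa1 (chr9:46228580-46230466), Apoc3 (chr9:46232933-46235636), Apoa4 (chr9:46240696-46243459) and Apoa5 (chr9:46268633-46271919) stand next to each other on chromosome 9, and Apoc1 (chr7:19689481-19692660) and Apoe (chr7:19696109-19699188) on chromosome 7. Apoa2 (chr1:171225054-171226379), Apob (chr12:7977648-8016835), Apom (chr17:35128997-35132050) and Mttp (chr3:138089854-138144968) stand alone. Apoa4 overlaps the annotated genes Gm10680 and Gm47528, Apoa5 overlaps Gm47544, and Mttp overlaps Gm43691 and Trmt10a. Whether the counting used the strand is not stated in the sources used here, so reads from such neighbours cannot be told apart. RefSeq's promoter table for GRCm38.p6 held 8 of the 10 genes, all but Apoc1 and Apoc3. The stretches before the gene start are shown for 3 genes of the chromosome 9 cluster, all highest in the same WT tumor but lowest in 3 different ones, and for Apob, the core of the particle. They are in lower case, on the plus strand, and capitals mark a TATA box (TATAAA) or a sequence of the kind that the liver factor HNF4A binds (CAAAGTTCA or CAAAGTCCA), all searched on both strands.
Apoa1, chr9:46228380-46228579: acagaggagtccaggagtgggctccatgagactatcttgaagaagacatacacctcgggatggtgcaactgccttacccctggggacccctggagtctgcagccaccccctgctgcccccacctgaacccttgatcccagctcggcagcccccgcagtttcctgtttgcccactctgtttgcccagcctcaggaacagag
Apoa4, chr9:46240594-46240695: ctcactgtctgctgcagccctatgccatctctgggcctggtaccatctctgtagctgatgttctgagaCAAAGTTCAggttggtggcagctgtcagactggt
Apoa5, chr9:46268383-46268632: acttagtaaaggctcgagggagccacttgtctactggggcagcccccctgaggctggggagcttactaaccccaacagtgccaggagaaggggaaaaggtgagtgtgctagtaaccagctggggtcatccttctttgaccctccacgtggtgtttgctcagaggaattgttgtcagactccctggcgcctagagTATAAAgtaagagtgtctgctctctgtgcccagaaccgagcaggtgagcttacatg
Apob, chr12:7977427-7977647: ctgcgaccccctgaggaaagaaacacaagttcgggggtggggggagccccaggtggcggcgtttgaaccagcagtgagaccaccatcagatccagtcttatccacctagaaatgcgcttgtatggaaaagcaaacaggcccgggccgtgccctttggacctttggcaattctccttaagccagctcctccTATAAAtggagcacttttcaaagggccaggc
The stretch before Apob holds TATAAA starting 31 bases before the annotated gene start, and the one before Apoa5 holds it 56 bases before. In the stretch before Apoa4, CAAAGTTCA starts 34 bases before the gene, and in the one before Apoa1 none of these letters occur. The stretches were cut at the annotated gene start, which lies before the RefSeq start for Apoa1, Apoa4 and Apob. For these genes the stretches are shorter than the windows counted next, and the distances given are not distances to the RefSeq start. Over the 12 RefSeq windows of the 8 genes, TATAAA was found for 4 genes (Apoa2, Apoa5, Apob and Apoe, the last in a window of another RefSeq start). It occurred in 12.4% of all 32851 windows of 250 bases. Shares of windows here and below are per window, and a gene with several windows has several chances of a match, so they are not comparable with counts of genes. CAAAGTTCA was found for 1 of the 8 genes and in 0.335% of all windows, and CAAAGTCCA for 0 of the 8 and in 0.384%. No motif overlapped another in the stretches shown, and a match of letters describes the sequence only.

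The targeted gene was examined first. Among libraries labelled WT, Top1mt stood at log2 values of 7.71 (replicate 1), 5.99 (replicate 2) and 8.01 (replicate 3), and among those labelled KO at 5.58, 6.41 and 6.32. WT replicate 2 fell inside the KO range, against its label, and every direction given below rests on the labels. In KO replicate 1 the single gene Gm42418 made up 17.7% of the values summed on the linear scale, against at most 0.387% in the other libraries. The 12 hepatocyte markers were all present, led by Alb and Ahsg, with summed log2 levels of 20.86 to 21.48 in WT and 21.14 to 21.63 in KO. Among the enterocyte markers, which would betray gut tissue, Alpi, Sis and Cdx2 had mean log2 values under 1, while Fabp2 ran from 9.43 to 11.10 and Vil1 from 2.24 to 5.57. WT replicate 3 was highest for Alpi, Sis (1.07), Cdx2 and Vil1, and WT replicate 2 for Fabp2. The mean of centred log2 values over the 5 markers was 0.92 in WT replicate 3 and -0.09 or lower in each other tumor.

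The 10 lipoprotein genes showed no difference between Top1mt-KO and WT tumors that exceeded the spread between tumors. In KO, 6 had a higher mean and 4 a lower mean, the median log2 difference was 0.02, and the mean differences ran from -0.31 for Apoa5 to 0.21 for Apoc3. By limma with Benjamini-Hochberg adjustment 0 of the 10 passed an adjusted p of 0.05 (all 10 had an adjusted p of 0.999), as did 0% of the 22677 genes tested. An unadjusted p under 0.05 was found for 0 of the 10, against 4.34% of all genes tested. WT and KO values overlapped for all 10, while 8.28% of all genes tested had groups that did not overlap (3.95% higher and 4.33% lower in KO). All 10 genes were far above the filter on low values, so none was left out of the test. In bulk tumors fewer hepatocytes and less RNA per hepatocyte cannot be told apart.

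**Figure D1:**
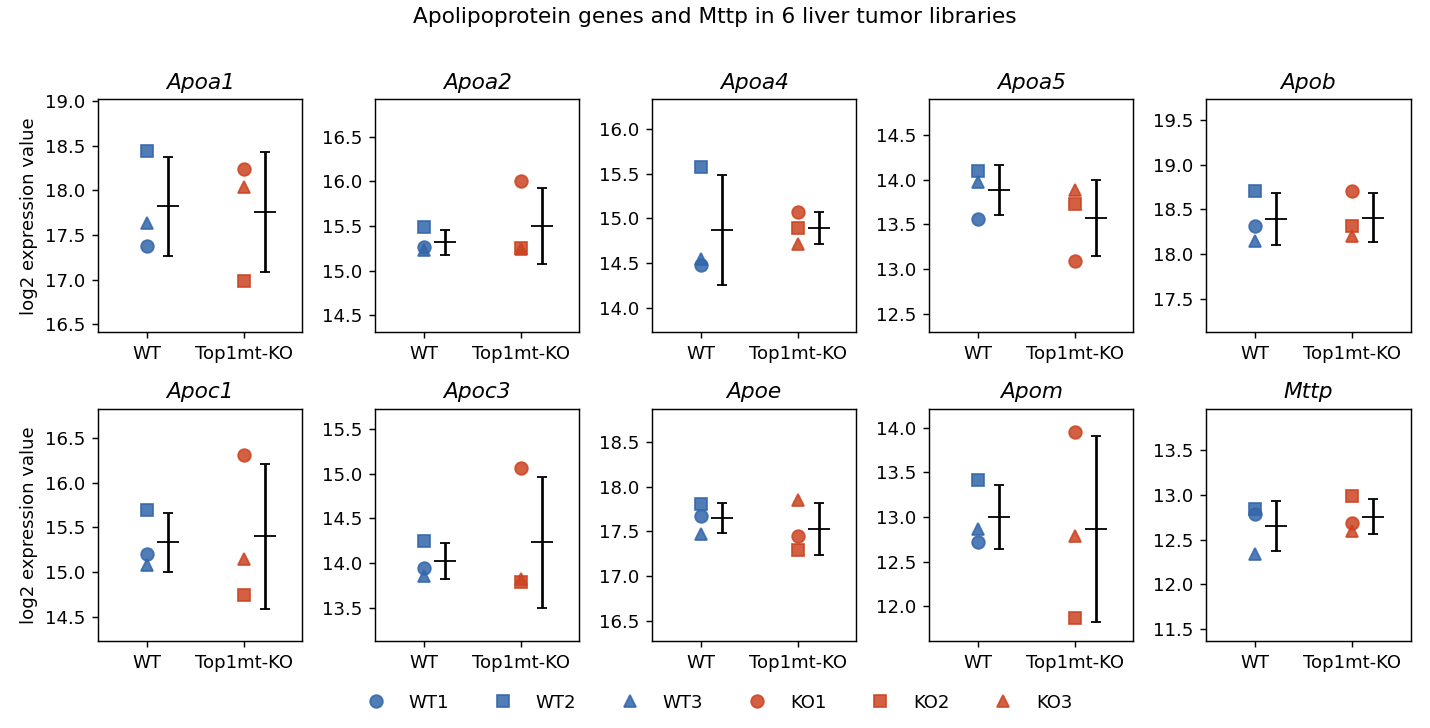
Deposited log2 expression values (vertical axis, each panel spanning 2.6 log2 units) of the 10 genes in WT tumors (blue) and Top1mt-KO tumors (red), with 1 point per tumor and the mean ± SD (n = 3) in black beside each group. The groups overlap in every panel, and KO replicate 1 (red circle) and WT replicate 2 (blue square) hold the highest value in 8 of the 10.

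The levels of the genes were compared after dividing by the length of their merged exons, on a log2 scale per kilobase, which takes the deposited values as not corrected for length. Apoa1 stood first with a mean level of 17.48, followed by Apoe (16.49), Apoa2 (16.31), Apoc1 (15.79), Apob (14.60), Apoc3 (14.10), Apoa4 (14.02), Apom (12.92), Apoa5 (12.39) and Mttp (10.07). Between neighbours in this order the ranges over the 6 tumors were apart at only 2 steps, Apoc1 above Apob and Apoa5 above Mttp. Apoc3 exceeded Apoa4 in 3 of the 6 tumors, so these genes could not be ranked. In each tumor Apoa1 was above Apoe and Apoa2 above Apoc1, although the ranges overlapped. On the linear scale the 10 genes took 4.82% to 7.07% of each library's summed values once Gm42418 was left out, the lowest in KO replicate 2 and the highest in WT replicate 2.

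Apob and Mttp carry out the first step of assembly. Apob, the structural protein of very low density lipoproteins, had log2 values of 18.32, 18.71 and 18.15 in WT and of 18.71, 18.31 and 18.20 in KO, given here and below in the order of replicates 1, 2 and 3. The highest tumor of each genotype was level with the other and the groups overlapped throughout, with a log2 difference of 0.02. Its standard error was 0.89 by limma with a mean-variance trend, which assigns wide errors to the most abundant genes, and 0.24 without the trend. The 95% interval accordingly ran from -2.04 to 2.08 with the trend and from -0.56 to 0.59 without it. Mttp, which transfers triglyceride onto nascent apolipoprotein B, was at 12.79, 12.84 and 12.34 in WT and at 12.69, 12.99 and 12.60 in KO. WT replicate 3 was the lowest and KO replicate 2 the highest, and the rest lay between them. The log2 difference of Mttp was 0.11 (standard error 0.20, 95% interval -0.36 to 0.58), the narrowest of the 10 in the fit with a trend. The difference between Apob and Mttp within a tumor averaged 5.74 ± 0.18 log2 units for WT (SD, n = 3) and 5.65 ± 0.35 for KO (SD, n = 3), with p = 0.7 by an exact two-sided permutation test, which cannot give less than 0.1 with 3 tumors a group.

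The core proteins of high density lipoproteins varied more between tumors than between genotypes. Apoa1, the main protein of the particle and the activator of the enzyme that esterifies its cholesterol, had log2 values of 17.38, 18.44 and 17.63 in WT and of 18.24, 16.99 and 18.04 in KO. WT replicate 2 held the highest value and KO replicate 2 the lowest, 2.72-fold apart, with the other 4 tumors between them. The log2 difference was -0.06 (95% interval -1.84 to 1.72 with the trend, -1.11 to 0.99 without). Without KO replicate 1 the difference was -0.30 and without KO replicate 2 it was 0.32. Apoa2, the second protein of the particle, was at 15.26, 15.49 and 15.23 in WT and at 16.00, 15.25 and 15.24 in KO. KO replicate 1 stood above the other 5 tumors, which spanned a narrow band, and the log2 difference of 0.17 (standard error 0.35) was -0.08 without that tumor.
Apom, a small apolipoprotein that carries sphingosine-1-phosphate, spread the most of the 10 genes. Its log2 values were 12.72, 13.41 and 12.87 in WT and 13.95, 11.87 and 12.79 in KO. The highest and the lowest tumor were both KO, replicates 1 and 2, and differed 4.22-fold, so that the 3 WT tumors lay inside the KO range. The log2 difference was -0.13 (standard error 0.48, 95% interval -1.23 to 0.98). It was -0.67 without KO replicate 1 and 0.37 without KO replicate 2. Apoa4, which the liver and the gut secrete on triglyceride-rich and high density particles, was at 14.48, 15.58 and 14.55 in WT and at 15.07, 14.89 and 14.71 in KO. WT replicate 2 was the highest tumor and WT replicates 1 and 3 the lowest, with all KO tumors between them. The log2 difference was 0.02 (standard error 0.36) and 0.38 without WT replicate 2.

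Apoc3 and Apoa5 act on lipoprotein lipase in opposite ways, Apoc3 as an inhibitor of triglyceride clearance and Apoa5 as a promoter of it. Apoc3 had log2 values of 13.94, 14.25 and 13.86 in WT and of 15.06, 13.79 and 13.82 in KO. KO replicate 1 was the highest tumor and the other KO tumors were the lowest, so the log2 difference of 0.21 (standard error 0.37) became -0.21 without KO replicate 1. Apoa5 was at 13.56, 14.10 and 13.97 in WT and at 13.09, 13.73 and 13.88 in KO. KO replicate 1, the highest tumor for Apoc3, was the lowest for Apoa5, and the groups overlapped. The log2 difference of Apoa5 was -0.31 (standard error 0.28, 95% interval -0.94 to 0.33, exact two-sided permutation test p = 0.4), the largest in size of the 10 genes, and -0.07 without KO replicate 1. Within a tumor Apoc3 exceeded Apoa5 by 1.98 log2 units in KO replicate 1, and in the other 5 tumors the difference ran from -0.10 to 0.38. The genotype means of that difference were 0.14 ± 0.24 for WT (SD, n = 3) and 0.66 ± 1.14 for KO (SD, n = 3), with p = 0.8 by the same exact permutation test.

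Apoe and Apoc1 are neighbours that shape remnant uptake, Apoe as a ligand of the low density lipoprotein receptor family and Apoc1 as a protein that hinders such uptake. The log2 values of Apoe were 17.67, 17.81 and 17.47 in WT and 17.45, 17.29 and 17.85 in KO. Apoe and Apob had the smallest ranges over the 6 tumors, 0.57 log2 units each, and for Apoe both the highest and the lowest tumor were KO. The log2 difference was -0.12 (95% interval -1.62 to 1.38 with the trend, -0.65 to 0.41 without). Apoc1 was at 15.20, 15.69 and 15.08 in WT and at 16.31, 14.74 and 15.14 in KO. KO replicate 1 was the highest tumor and KO replicate 2 the lowest, as for Apom and Apoc3. The log2 difference of Apoc1 was 0.07 (standard error 0.46), -0.38 without KO replicate 1 and 0.40 without KO replicate 2. Macrophages also express Apoe, and the 14 macrophage markers scored (mean of centred log2 values) 0.00, -0.38 and 0.45 in WT and -0.33, 0.10 and 0.17 in KO. Their summed log2 level ran from 13.18 to 14.17 in WT and from 13.14 to 13.63 in KO, with 0 of the 14 under a mean of 1. The most abundant of them, Cd5l and Lyz2, were highest in WT replicate 3, as were most of the list. Clec4f, named after its values were seen, was highest in KO replicate 3 (10.93), where Apoe was highest too. The part of macrophages in the level of Apoe was not tested.

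**Figure D2:**
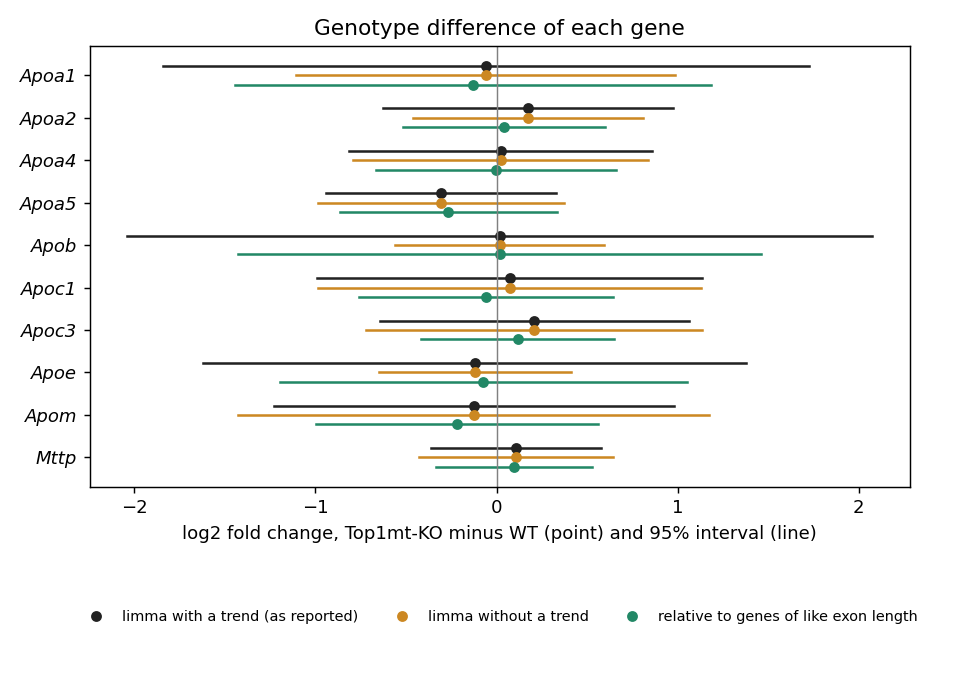
Log2 fold change of each gene, Top1mt-KO minus WT (horizontal axis), as points with 95% intervals from limma with a trend (black), limma without a trend (orange) and after taking off the median of genes of like exon length (green). Every interval includes 0, and the intervals of Apob, Apoa1 and Apoe are the widest in black and shrink in orange.

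Several of these genes had their extreme values in the same tumors. KO replicate 1 held the highest value of 5 genes (Apoa2, Apob, Apoc1, Apoc3 and Apom), WT replicate 2 that of 3 (Apoa1, Apoa4 and Apoa5), and KO replicate 2 the lowest value of 5. Of all genes tested, 18.8% were highest in KO replicate 1, and of those with a mean log2 value above 10 it was 30.7%. Of all genes tested, 15.7% were lowest in KO replicate 2. The same score over the 10 lipoprotein genes came to -0.16, 0.34 and -0.18 in WT and to 0.37, -0.30 and -0.06 in KO. Tumors with high scores were thus found in each genotype, and the genotype means differed by less than the SD within a genotype. The median SD between tumors of the same genotype was 0.41 log2 units for the 10 genes, 0.385 over all genes tested and 0.21 for the 2502 of them with a mean above 10.
Other cell types also differed between these tumors. The 8 stellate and fibroblast markers had scores of 0.94, -0.04 and -0.35 in WT and of -1.11, 0.56 and -0.01 in KO, so KO replicate 1, with its high lipoprotein genes, had the lowest score. Their summed log2 level ran from 13.12 to 14.64 in WT and from 12.21 to 14.26 in KO, with 0 of the 8 under a mean of 1, and Col3a1 and Col1a2 were the highest of them. The 6 bile duct markers scored 0.58, -0.02 and 1.24 in WT and -1.04, -0.22 and -0.54 in KO, with no overlap and with summed log2 levels of 11.59 to 12.62 in WT and 11.70 to 12.58 in KO (0 of the 6 under a mean of 1). Spp1 and Sox9, the most abundant of them, differed by 0.05 and 0.15 with overlapping groups, while Krt19 (-2.68), Krt7 (-2.20), Cldn4 (-1.31) and Epcam (-1.19), named after their values were seen, were lower on average in KO. Krt19 and, narrowly, Epcam did not overlap between groups, and limma's adjusted p was 0.987 or more for all 6. The endothelial markers, led by Stab2 and Kdr, ran from -0.17 to 0.27 over the 6 tumors, and the lymphocyte markers, led by Ptprc and Cd79a in level, from -0.35 to 0.33. Of the 6 endothelial markers Pecam1 (0.16) and Cdh5 (0.40) did not overlap between groups, nor did Cd3e (-1.03) of the 6 lymphocyte markers. All were named after their values were seen, and limma's adjusted p was 0.999 for each. Of all genes tested, 8.28% did not overlap. The part of these cell types in the lipoprotein values was not tested.

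The tumor differences also followed the length of the transcripts. Among genes with a mean log2 value above 10, the 58 others with merged exons under 1000 bases had a median deviation of 0.616 from their 6-tumor mean in KO replicate 1, and 77.6% of them were highest there. The median deviation was 0.231 for the 207 genes from 1000 to below 2000 bases, 0.01 for the 638 from 2000 to below 4000 bases and 0.058 for the 1563 of 4000 bases or more. Of the 10 lipoprotein genes, Apoa2 (537 bases) and Apoc1 (744 bases) fell in the shortest class, and Apom, Apoc3, Apoa1 and Apoa4 in the next.
After the median deviation of the 100 genes nearest in length was taken off, the range of Apoa2 over the 6 tumors went from 0.77 to 0.08 log2 units. The height of Apoa2 in KO replicate 1, 0.59 above its mean, was thus matched by that of genes of like length, at 0.58. Likeness in length was loose for the shortest genes. The 100 neighbours ran from 238 to 1391 bases for Apoa2 and from 410 to 1444 bases for Apoc1. The range of Apoc1 went from 1.57 to 0.88, that of Apoc3 from 1.27 to 0.66 and that of Apom from 2.08 to 1.46. Those of the others changed less: Apoa1 from 1.44 to 1.19, Apoa4 from 1.1 to 0.9 and Apoa5 from 1.01 to 0.89. Apob went from 0.57 to 0.51 and Mttp from 0.66 to 0.61, while the range of Apoe widened from 0.57 to 0.65. In KO replicate 1, Apoc1, Apoc3 and Apom remained 0.41, 0.49 and 0.56 above genes of like length, and Apoa5 stood at -0.57 relative to such genes. In KO replicate 2, Apom stood at -0.90 and Apoa1 at -0.65 relative to genes of like length. In WT replicate 2 genes of like length lay 0.11 above their means for Apoa1 and 0.15 for Apoa4, and Apoa1 and Apoa4 stood 0.54 and 0.55 above them. Ribosomal protein genes made up 19 of the 100 neighbours of Apoa2, so length and function cannot be told apart in this comparison. The log2 difference between genotypes became -0.0036 for Apoa4 and -0.059 for Apoc1, and 0 of the 10 passed the threshold in that fit. This comparison was added after the values were seen.

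**Figure D3:**
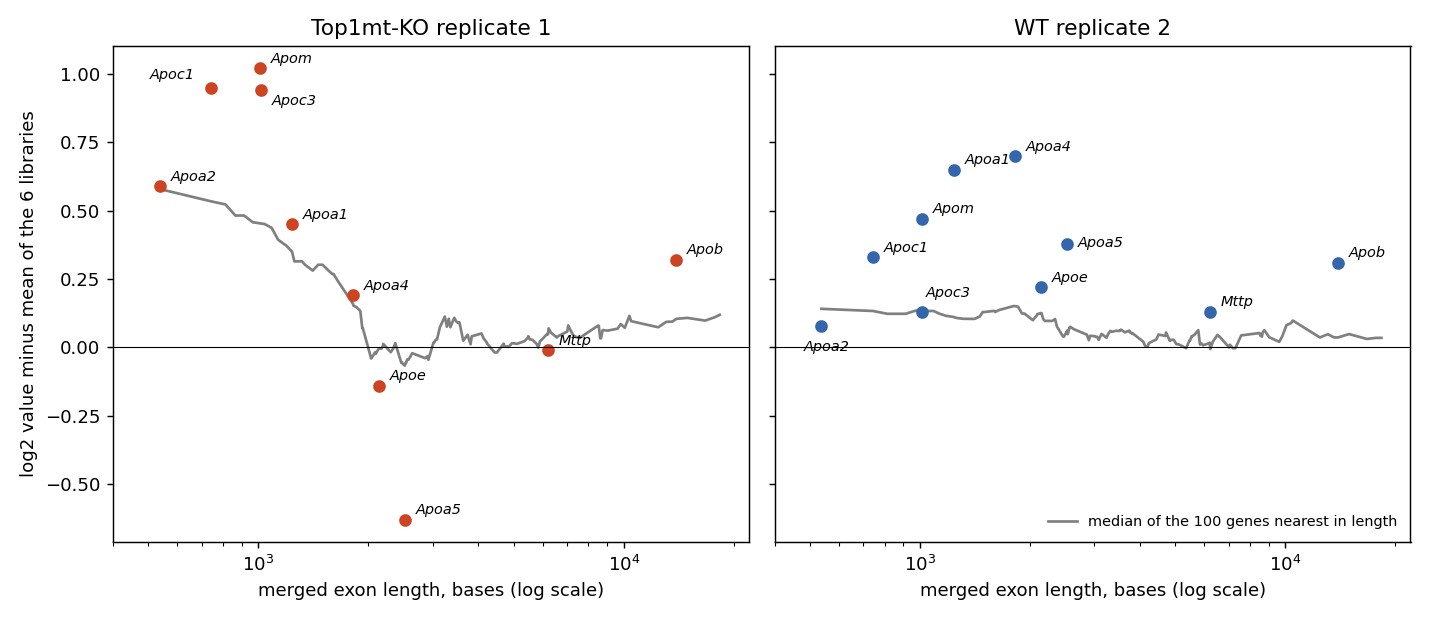
Deviation of each gene's log2 value from its mean over the 6 tumors (vertical axis) against its merged exon length in bases (horizontal axis, log scale) in KO replicate 1 (left) and WT replicate 2 (right), with the grey line giving the median of the 100 abundant genes nearest in length. In KO replicate 1 the line falls from 0.58 at the shortest gene, where Apoa2 sits on it, toward 0 at 2000 bases, with Apoc1, Apoc3 and Apom above it and Apoa5 below it.

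Genes that are neighbours on the chromosome did not all move alike from tumor to tumor. In the chromosome 9 cluster, Apoa1 and Apoa4 both peaked in WT replicate 2, at 0.65 and 0.70 above their means, whereas Apoc3, which lies between them, was 0.13 above its mean there. In KO replicate 2, Apoa1 was at -0.79 and Apoa4 at 0.02. The difference between Apoa1 and Apoa4 within a tumor was 2.10 in KO replicate 2 and 2.86 to 3.33 in the other 5. In the chromosome 7 cluster, Apoc1 exceeded its mean by 0.95 in KO replicate 1 while Apoe was at -0.14. Relative to genes of like length, Apoc1 stood at 0.41 and Apoe at -0.14 in KO replicate 1, so part of this gap was matched by length. Apoc1 minus Apoe was -1.14 log2 units in that tumor and -2.71 to -2.12 in the others. Apoc2 and Apoc4, the next genes of that cluster and not among the 10, were also highest in KO replicate 1, 1.21 and 0.63 above their means. Relative to genes of like length, both stood at 0.69 there. Apoc2, the cofactor that lipoprotein lipase requires, was at 14.46, 15.03 and 13.98 in WT and at 15.43, 13.21 and 13.20 in KO. For Apoc2 the lowest tumors were KO replicates 2 and 3 and the highest KO replicate 1, and its log2 difference of -0.54 was -1.28 without KO replicate 1 and -0.17 without KO replicate 2 or KO replicate 3.

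**Figure D4:**
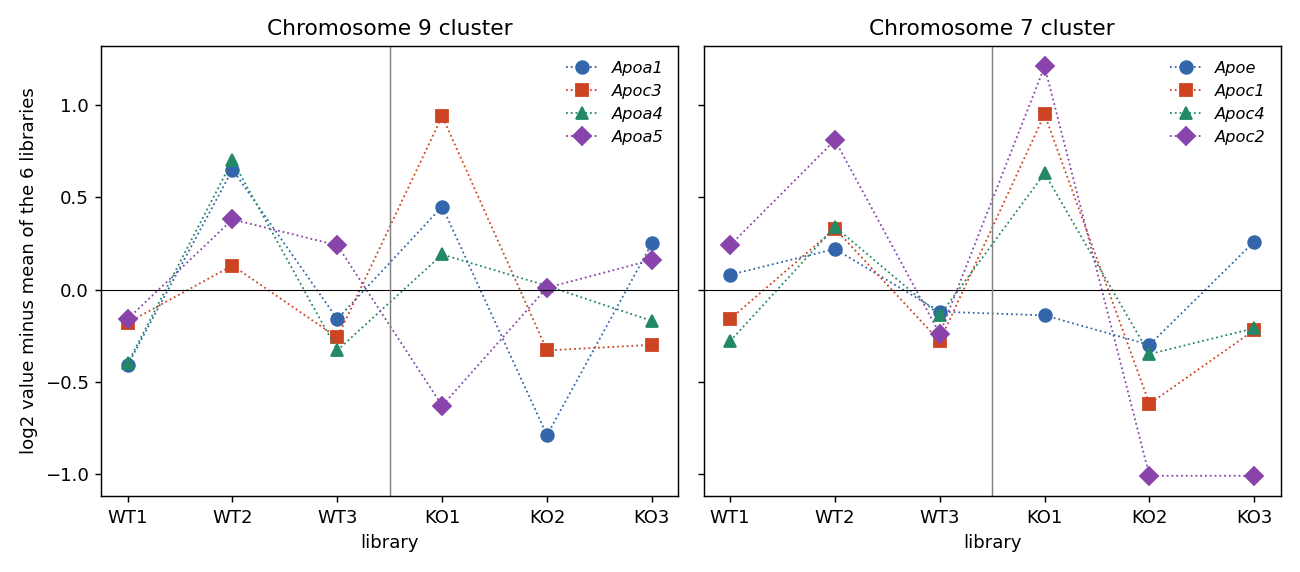
Deviation of each gene's log2 value from its mean over the 6 tumors (vertical axis) for the genes of the chromosome 9 cluster (left) and of the chromosome 7 cluster (right), by library (horizontal axis), with dotted lines only joining points of the same gene. In KO replicate 1, Apoc3 stands at 0.94 and Apoa5 at -0.63 on the left, and Apoc2, Apoc1 and Apoc4 stand above Apoe on the right. The values shown are not taken relative to genes of like length.

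The genes elsewhere in the lipoprotein pathway whose pattern over the 6 tumors lay nearest to each of the 10 were also listed, as a description on 6 points that share libraries and length effects. Distances are root mean square differences of centred log2 values over the tested genes of the 5 pathway lists described below. Nearest to Apob were Ctage5 (the listed name of Mia2, a receptor for bulky cargo leaving the endoplasmic reticulum) at 0.095 and P4hb, the small subunit of the Mttp complex, at 0.10. Nearest to Mttp was Dgat1, which makes triglyceride, at 0.12. Nearest to Apoc1 and to Apom was Scarb1, the receptor for high density lipoproteins, at 0.18 and 0.29, and nearest to Apoc3 was Apoc4 at 0.17. Nearest to Apoa2 was Pla2g12b at 0.11, to Apoe Nr1h2 at 0.15, to Apoa5 Cebpa at 0.19, to Apoa4 Dgat1 at 0.23 and to Apoa1 Rora at 0.28. Against a median distance of 0.55 to the listed genes for Apoa1 and 0.65 for Apom, no distance here was tested.

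Relative to hepatocyte transcripts the genotypes overlapped as well. From each gene's log2 value the mean of the 12 hepatocyte markers in the same tumor was subtracted, which removes any scaling between libraries. The median difference between genotypes over the 10 genes was -0.13, and it was 0.02 without WT replicate 2 and -0.23 without WT replicate 1. Of the 12 markers, 8 had a higher and 4 a lower mean in KO, with a median log2 difference of 0.18. A difference in the markers themselves therefore enters these values. Apoa5 stood at -2.02 ± 0.31 for WT (SD, n = 3) and -2.47 ± 0.51 for KO (SD, n = 3), a difference of -0.45 with p = 0.3 by an exact permutation test. Apoe stood at 1.76 ± 0.04 for WT (SD, n = 3) and 1.49 ± 0.24 for KO (SD, n = 3), a difference of -0.27 with p = 0.3 by the same exact permutation test. On this scale WT tumors lay between 1.73 and 1.81 for Apoe and KO tumors between 1.30 and 1.76, so the groups still overlapped.

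The surrounding pathway was read from lists of other apolipoproteins, particle assembly and secretion, plasma remodelling, uptake receptors and transcription regulators, and 0 genes of these passed an adjusted p of 0.05 by limma with Benjamini-Hochberg adjustment. Of 19 genes of particle assembly and secretion, 11 had a higher and 8 a lower mean in KO, with a median log2 difference of 0.04 against -0.015 over all genes tested, and the groups overlapped for all 19. The 3 largest differences of that list were 0.32 for Tm6sf2, which helps load lipid onto nascent particles, 0.29 for Pla2g12b, and -0.20 for Dgat2, a triglyceride synthase. Without KO replicate 1 these were 0.06 for Tm6sf2 and 0.11 for Pla2g12b, and without WT replicate 2 the difference of Dgat2 was -0.02. The list of 16 other apolipoproteins also took in Pon1, an enzyme bound to high density lipoproteins, and Apool, a mitochondrial protein. Of the 16, 5 had a higher and 11 a lower mean, with a median of -0.12 and 0 without overlap. Among the 11, Apod and Apol6 had mean log2 values under 1. The largest differences there were those of the acute phase proteins Saa2 (-1.73) and Saa1 (-1.02), near-identical copies whose reads may be shared. Saa2 was at 7.55, 6.04 and 10.58 in WT and at 7.05, 5.90 and 6.03 in KO, so that WT replicate 3 stood apart, and without it the differences were -0.47 for Saa2 and -0.07 for Saa1.
Of 11 genes of plasma remodelling, 6 had a higher and 5 a lower mean in KO, with a median of 0.05. Lpl and Lmf1 did not overlap between groups, 2 of 11 against 8.28% of all genes tested, and Lpl had an unadjusted p under 0.05. Lpl, lipoprotein lipase, which releases fatty acids from the particles, was at 10.85, 10.81 and 10.68 in WT and at 11.63, 11.59 and 12.19 in KO. Every KO tumor was above every WT tumor for Lpl, with a log2 difference of 1.02 (standard error 0.19, 95% interval 0.59 to 1.45) or 2.03-fold, yet limma's adjusted p was 0.938 (0.397 to 1.0 over the alternatives). The exact two-sided permutation test of Lpl gave p = 0.1, the smallest possible. Lmf1, a chaperone of Lpl named after its values were seen, differed by 0.14. Lipg, endothelial lipase, differed by -0.66 with overlapping groups. Lipc, hepatic lipase, differed by 0.30 with overlapping groups, and by -0.08 without WT replicate 2, where it was lowest.

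**Figure D5:**
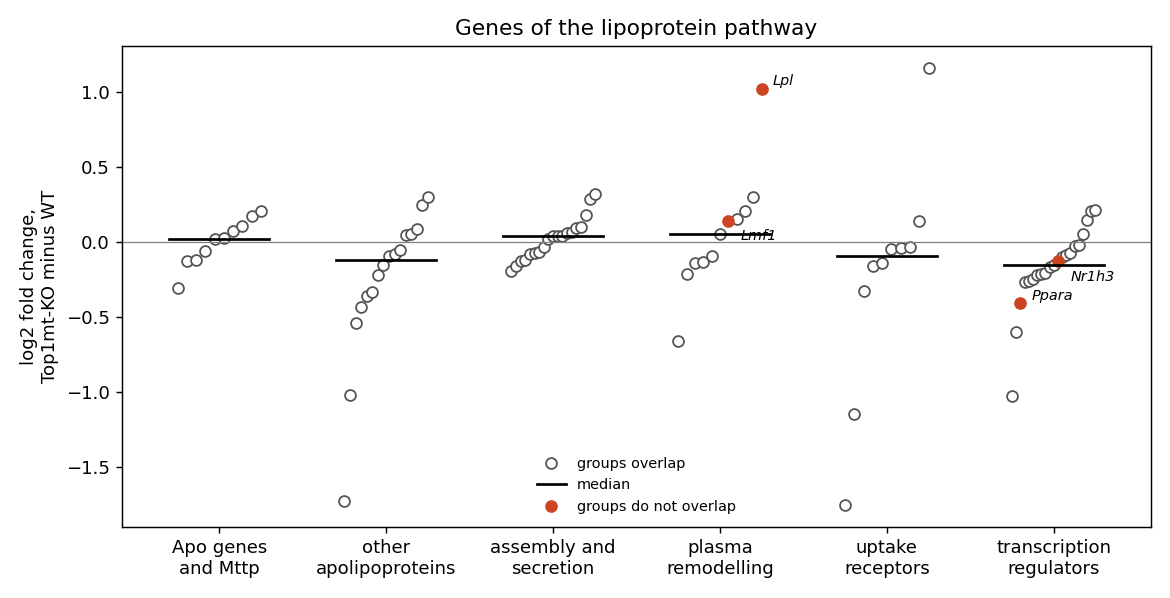
Log2 fold change, Top1mt-KO minus WT (vertical axis), of each gene tested in 6 lists (horizontal axis), with 1 circle per gene and a line at the list's median. Filled red circles, Lpl, Lmf1, Ppara and Nr1h3, mark genes whose WT and KO values do not overlap, and 0 of the 10 lipoprotein genes at the left is among them.

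Of 10 uptake receptors and their partners, 2 had a higher and 8 a lower mean in KO, with a median of -0.09 and 0 without overlap. Over all genes tested, 10817 had a higher and 11860 a lower mean in KO. Vldlr, a receptor for triglyceride-rich particles, was at 6.80, 5.44 and 5.81 in WT and at 5.92, 4.36 and 4.34 in KO, and the groups overlapped through KO replicate 1, with a log2 difference of -1.15. Lrp2, a large endocytic receptor, was at 7.27, 6.10 and 4.55 in WT and at 4.04, 3.96 and 4.65 in KO. KO replicate 3 was above WT replicate 3 for Lrp2, and its log2 difference was -1.75 (limma's unadjusted p = 0.0279, adjusted p = 0.999). Cubn, its partner in uptake of apolipoprotein A-I, had a log2 difference of 1.16 at low values of 1.30 to 3.91.
Of 21 transcription regulators, 4 had a higher and 17 a lower mean in KO, with a median of -0.15. Over all genes tested the counts were 10817 higher and 11860 lower, and no list was tested as a set. Ppara, a fatty acid sensor and the target of fibrate drugs, was at 12.06, 12.24 and 11.90 in WT and at 11.83, 11.84 and 11.31 in KO. All 3 KO tumors were under all 3 WT tumors for Ppara, narrowly for KO replicates 1 and 2, and the log2 difference was -0.41 (standard error 0.19, limma's adjusted p = 0.999), or -0.24 without KO replicate 3. Nr1h3, named after its values were seen, was the other regulator without overlap, at -0.13, which makes 2 of 21, near the 8.28% of all genes tested. Nr2f1 (-1.03) and Nr0b2 (-0.60) had larger differences with overlapping groups, and they were -0.25 for Nr2f1 without KO replicate 1 and -0.19 for Nr0b2 without KO replicate 2, the tumors where each was lowest. Hnf4a, the factor whose type of sequence stands before Apoa4 and which was named for that, differed by -0.17 with overlapping groups.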

How the data were processed

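Total RNA of 6 tumors (3 WT, 3 Top1mt-KO) was extracted with TRIzol, and libraries were made with a stranded TruSeq kit. The table that the authors deposited holds log2 values by gene symbol, normalized between libraries, from -2.24 to 22.0. The transform is not named, low values appear drawn toward their mean as in a regularized log, and fold changes of low genes are then understated. The submitters' processing notes name bcl2fastq 2.17, Trimmomatic 0.36, STAR 2.5.1, Subread, DESeq2 and GRCm38, whereas the study's methods name BWA and a genome called Mm 8, so the aligner and build are uncertain. The depth of each library is unknown. A total of 3 unnamed columns with 24 filled cells, leftovers of the authors' own ratio of the genotypes, were not used, and there were 0 further columns of per-sample values.

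The genotype comparison used limma 3.58.1 under R 4.3.3 (lmFit, eBayes with a trend, Benjamini-Hochberg adjustment, adjusted p under 0.05), leaving out the 25% of genes with the lowest means. Single differences were also tested by exact two-sided permutation over 20 regroupings (scipy 1.17.1). The fit was tested on simulated data. List scores are means of centred log2 values. Fold changes are on the log2 scale. Exon lengths and coordinates came from GENCODE on GRCm38, and 29897 genes had a length.

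The genes and lists were chosen with earlier results of these data known. Named genes were the 10 genes, Top1mt, the 3 genes with the largest difference of each pathway list, the 2 most abundant of each marker list and the pathway genes nearest to each of the 10. Other genes were chosen with their values in view, as the text says for some of them. The rest of these are Gm42418, the enterocyte markers Alpi, Sis and Cdx2, and Apod and Apol6. Pon1 and Apool were named for what they encode, and Hnf4a for its motif. Tf is listed as Trf, Cdx1 was not analysed here, and 1 further gene of plasma remodelling, left out of its list of 11, is not reported here. The alternatives were limma without a trend or with robust eBayes, quantile normalization, median centring, no filter, a filter at the median, a replicate block and each library left out. Values relative to genes of like length, and a fit without Gm42418, Lars2 and Gm15564, were added after the data were seen.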

Additional observations from a re-analysis of the deposited data

How the results depend on the processing

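Over all genes, 4 passed an adjusted p of 0.05 by limma once the filter on low values was dropped, and with each library left out in turn 0 to 1 did, the 1 being without KO replicate 1. The cause was not tested. An unadjusted p under 0.05 was found for 985 genes, 590 with a filter at the median and 859 to 1354 with a library left out. Of the 10 lipoprotein genes 0 passed under any of the 15 alternatives (smallest adjusted p 0.868 by limma). Of the 150 values, 22 reversed in direction, and Apoa5 reversed in none. Many of the 150 could not reverse, because a change of error model, filter, block or gene set left the log2 differences as they were. Only the 2 normalizations, the values relative to genes of like length and the fits with a library left out could move them.

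With quantile normalization the log2 difference was -0.0034 for Apoa4, -0.43 for Apob and -0.095 for Apoc1, and relative to genes of like length it was -0.0036 for Apoa4 and -0.059 for Apoc1. With a library left out it ran from -0.30 to 0.32 for Apoa1, -0.077 to 0.30 for Apoa2, -0.17 to 0.38 for Apoa4, -0.14 to 0.17 for Apob, -0.38 to 0.40 for Apoc1, -0.21 to 0.43 for Apoc3, -0.28 to 0.0015 for Apoe, -0.67 to 0.37 for Apom and -0.051 to 0.20 for Mttp. The median of the 10 ran from -0.12 to 0.23 with a library left out and was -0.13 with quantile normalization. That of plasma remodelling ran from 0.0030 to 0.18 and that of particle assembly from -0.067 to 0.061. The log2 difference of Lipc ran from -0.077 to 0.65, that of Lipg from -1.05 to -0.41, that of Lrp2 from -2.47 to -1.11, that of Cubn from 0.72 to 1.69 and that of Vldlr from -1.67 to -0.76. The causes were not tested.

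The deviations of tumors with the same replicate number correlated at -0.123, -0.0759 and 0.052, and so the numbers were not taken as a pairing. With the replicate number as a block 0 genes passed, with 912 at an unadjusted p under 0.05, and the block changed no call. With 3 tumors a genotype the intervals still allow a 2-fold difference in Apoa1, Apoc1, Apoc3 and Apom, with or without a trend. The number of reads behind each value is unknown.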
